A study of Sus scrofa with 12 samples.

Results

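The Aurora kinases and the chromosomal passenger complex were followed through maturation of pig oocytes. The members were looked up by name in the deposited gene table: AURKA, AURKB and AURKC for the kinases, INCENP, BIRC5 and CDCA8 for the passenger subunits, and TPX2 and BORA for the Aurora A activators. Of these 8 names, 7 had a row of that name among 28965 genes, and all 7 passed the filter on low counts, as did 12977 genes in total. No row was named AURKA. An unnamed row that covers the RefSeq interval of AURKA is given separately, by its identifier ENSSSCG00000007493, and is not counted among the 7 members.

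RNA was taken from denuded porcine (Sus scrofa) oocytes, that is, oocytes stripped of their cumulus cells. Maturation was in a chemically defined medium, and the 0 h libraries are from before maturation. The sample titles give 4 times, 0, 12, 28 and 44 h, with 3 libraries each, and time is the only labelled difference between the groups. The labels name no breed or age, no treatment beyond the medium, and no number of oocytes per library. Whether the libraries of a time stem from different animals or cultures is not stated. Every p-value below therefore measures only the spread between these libraries, which may be technical.

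Aurora kinases are serine/threonine kinases of cell division. Aurora A works at spindle poles and on spindle microtubules, where TPX2 binds and activates it and where, with BORA, it activates the kinase PLK1. Aurora B and its close relative Aurora C act within the chromosomal passenger complex, with the scaffold INCENP, survivin (BIRC5) and borealin (CDCA8), on chromosomes, kinetochores and the central spindle. In mouse oocytes Aurora C is the main kinase of that complex during meiosis, the division that the oocyte resumes in maturation.

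Library totals ran from 21877235 to 26015373 counts. None of the 66 pairs of libraries held identical counts, and the median absolute deviation of a gene from its time mean lay between 0.0515 and 0.0905 on the log2 scale in every library, highest in 0 h replicate 3. All 10 oocyte markers that had a row were detected, and their summed level was 11910 to 14300 CPM (counts relative to the scaled library total) in the 0 h libraries but 7444 to 7541 in those of 44 h. Over all libraries the range was wide for ZP3 (161 to 1880 CPM) and ZP4 (424 to 2110 CPM). It was narrower for BMP15 (3840 to 5330 CPM), MOS (669 to 933 CPM) and DDX4 (17.4 to 23.0 CPM). Whether the fall in the sum reflects oocyte content or single transcripts was not tested. Of 20 cumulus and granulosa markers with a row, 19 were detected. VCAN was the highest, at 69.5 to 96.4 CPM, and the receptor gene FSHR was at 0 in every library. Their summed level in CPM was 84.5 to 97.5 in the 0 h libraries, 94.2 to 96.8 in those of 12 h, 110 to 123.5 in those of 28 h and 101.4 to 108.7 CPM in the 44 h libraries. The 19 markers under 10 CPM summed to between 15.0 and 19.6 CPM before maturation (0 h) and between 16.9 and 33.3 CPM after 44 h. The part of these cells in the results below was not tested. All levels below are shares of a library, so fewer cells of a type and less RNA per cell cannot be told apart.

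Between 0 and 44 h the fitted folds of the 7 members ran from 0.911 (BIRC5) to 1.27 (CDCA8). At 44 h with 0 h, 2 of the 7 members were called, both higher: CDCA8, which encodes borealin, and AURKB. None was called lower. Among all tested genes 19.9 percent were called in this comparison, and 8.3 percent were called higher, in the quasi-likelihood F test of edgeR, adjusted after Benjamini and Hochberg over 12977 genes, at a threshold of 0.05. The median log2 fold change was 0.12 over the 7 members and -0.01 over all tested genes. Libraries at 44 h lay all above those at 0 h in 5 of the 7 members (AURKB, INCENP, CDCA8, TPX2 and BORA), and in either direction such separation was seen in 33.5 percent of tested genes.

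**Figure D1:**
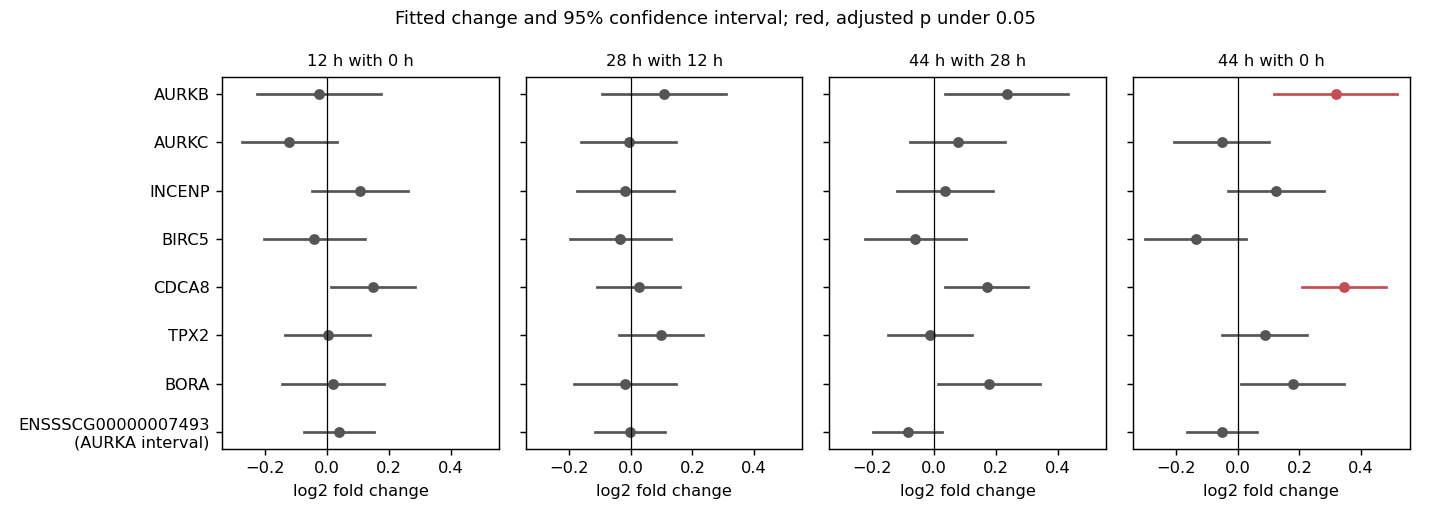
Log2 fold change (x axis) of each of the 7 members and of the row at the AURKA interval in 4 panels (the 3 steps between successive times, then the last time against the first), from the edgeR fit; lines are 95 percent confidence intervals and red marks an adjusted p under 0.05. The red members are CDCA8 at 0.34 and AURKB at 0.32 in the 44 h with 0 h panel, where the row at the AURKA interval lies at -0.05.

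Levels can be compared between genes only per length, so RPKM (reads relative to gene model length and library total) is used for that, with means over all 12 libraries. The row at the AURKA interval was at 694 ± 23.0 RPKM (SD, n = 12), rank 13 of the 12977 tested genes. TPX2 was at 134 ± 7.55 RPKM, rank 163. AURKC followed at 46.1 ± 3.40 RPKM, BIRC5 at 41.4 ± 2.72 RPKM and CDCA8 at 36.4 ± 3.51 RPKM. The libraries of AURKC (40.4 to 51.6 RPKM), BIRC5 (36.5 to 47.3 RPKM) and CDCA8 (30.7 to 42.6 RPKM) overlapped from each to the next. BORA was at 18.9 ± 1.32 RPKM, INCENP at 15.2 ± 0.913 RPKM and AURKB lowest at 13.6 ± 1.73 RPKM. INCENP (14.1 to 16.9 RPKM) lay below BORA (17.7 to 21.9 RPKM) in every library, while AURKB ranged from 11.2 to 17.3 RPKM and overlapped INCENP. Per length, the row at the AURKA interval and TPX2 stood above the other 6 genes in every library, while BORA, the other Aurora A activator, lay below AURKC, BIRC5 and CDCA8.

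**Figure D2:**
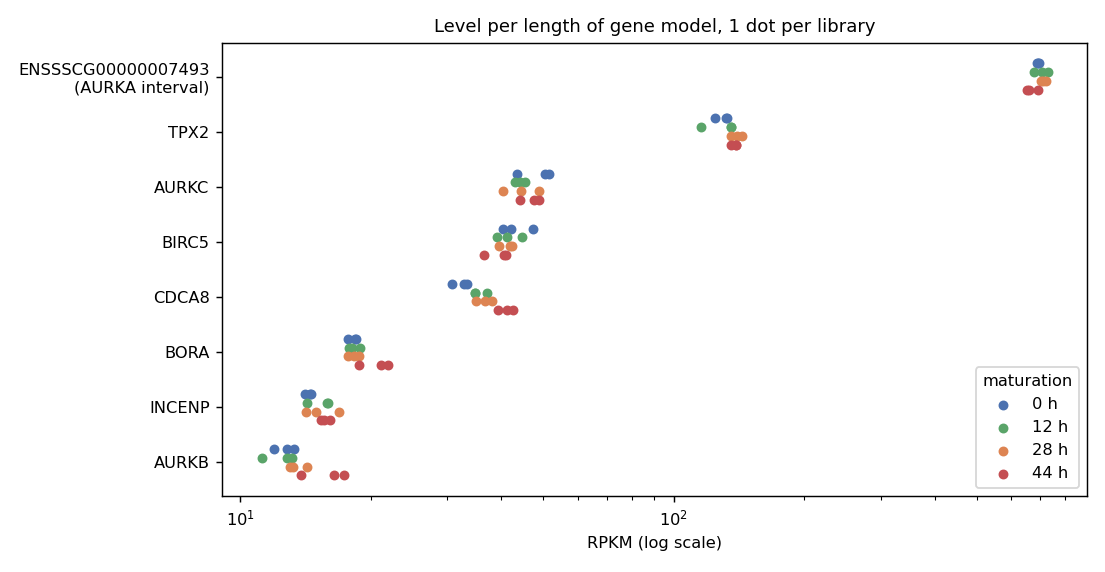
RPKM of the 7 members and of the row at the AURKA interval on a log axis, with 1 dot per library coloured by time. The row at the AURKA interval (652 to 730 RPKM) and TPX2 (115 to 144 RPKM) lie above the other 6, which range from 11.2 to 51.6 RPKM.

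Some of these rows are uncertain in identity or share bases with another gene; positions are on Sscrofa11.1, counted from 1. ENSSSCG00000007493 spans chr17:56954829-56972798 on the minus strand and covers 100 percent of the RefSeq AURKA interval, but the name tables give it no symbol. It shares 597 bases with CSTF1 on the other strand, which was at 224 to 304 CPM. The row named AURKC (ENSSSCG00000034174, chr6:61650649-61656113, plus strand) coincides in RefSeq with LOC110261315, and RefSeq places AURKC 62.2 kb away, inside the unnamed rows ENSSSCG00000033340 (180 to 210 CPM) and ENSSSCG00000035385 (6.59 to 13.9 CPM). How reads that match both copies were assigned is not given in the sources used here, so the AURKC values are uncertain. BIRC5 (ENSSSCG00000040486, chr12:3747237-3755188, minus strand) lies wholly within TK1, which is on the plus strand and was at 87.2 to 115 CPM. Whether the counting used strand is not stated, and shared bases are given for whole gene spans, with exons not compared. Whether reads of BIRC5 and TK1 were kept apart is therefore not known here. The remaining members are AURKB (ENSSSCG00000028924, chr12:53410176-53423225, minus strand), INCENP (ENSSSCG00000013066, chr2:9411942-9445832, minus strand), CDCA8 (ENSSSCG00000032909, chr6:93750687-93765483, plus strand), TPX2 (ENSSSCG00000007235, chr17:35431370-35484760, plus strand) and BORA (ENSSSCG00000025120, chr11:45018352-45045127, plus strand). BORA shares 620 bases with DIS3 (53.6 to 62.1 CPM) and 511 bases with MZT1 (8.84 to 13.8 CPM), and CDCA8 shares 356 bases with EPHA10, which was at most 0.62 CPM.

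For each gene below, libraries are given in the order of their replicate numbers, as CPM scaled by the trimmed mean of M values (TMM). Replicates 2, 3 and 4 were present at 0 and 28 h, replicates 1, 3 and 5 at 12 h, and replicates 1, 2 and 4 at 44 h.

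Of the kinases, the row at the AURKA interval read 2270, 2294 and 2259 CPM at 0 h, 2267, 2316 and 2421 CPM at 12 h, 2343, 2312 and 2333 CPM at 28 h, and 2154, 2248 and 2182 CPM at 44 h. Every library at 44 h was below every library at 0 h, though by little. The mean went from 2274 ± 17.8 to 2195 ± 48.4 CPM (SD, n = 3 each), a fold of 0.965 (95% confidence interval 0.892 to 1.04), which edgeR's quasi-likelihood test did not call (adjusted p = 0.586). The highest time mean was 1.06 times the lowest, against a median of 1.15 over the 7883 tested genes at 10 CPM or more. This span was also below that median in TPX2 (1.07), AURKC (1.09), INCENP (1.09), BIRC5 (1.1) and BORA (1.13). In AURKB and CDCA8 it was above the median, at 1.27 each.

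AURKB, the passenger kinase of somatic mitosis, read 40.3, 37.8 and 41.2 CPM at 0 h, 42.0, 39.8 and 35.4 CPM at 12 h, 40.8, 44.7 and 40.7 CPM at 28 h, and 54.5, 50.8 and 43.4 CPM at 44 h. The 44 h libraries were above the 0 h and 12 h libraries, and the lowest of them was below the highest at 28 h. AURKB rose from 39.8 ± 1.74 CPM at 0 h to 49.5 ± 5.64 CPM at 44 h (SD, n = 3 each), a log2 fold change of 0.32 (SE 0.10) and a fold of 1.25 (95% confidence interval 1.09 to 1.43; edgeR's quasi-likelihood test, adjusted p = 0.0219). This call was lost when any 1 of 4 libraries was left out: 0 h replicate 2 (edgeR adjusted p = 0.0561), 0 h replicate 3 (0.065), 44 h replicate 1 (0.151) or 44 h replicate 2 (0.0754). It was also lost with the replicate number added to the fit as a block (edgeR adjusted p = 0.06). AURKB had the smallest counts of the members, 868 to 1414 per library.

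AURKC, the kinase of germ cells, read 193, 164 and 187 CPM at 0 h, 164, 169 and 167 CPM at 12 h, 181, 151 and 166 CPM at 28 h, and 179, 180 and 166 CPM at 44 h. The times overlapped throughout. Its mean was 181 ± 15.6 CPM at 0 h and 175 ± 7.56 CPM at 44 h (SD, n = 3 each), a fold of 0.965 (95% confidence interval 0.868 to 1.07; edgeR's quasi-likelihood test, adjusted p = 0.708).

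INCENP, the scaffold that binds and activates the kinase, read 97.7, 101.5 and 99.3 CPM at 0 h, 113, 109 and 99.3 CPM at 12 h, 96.8, 103.6 and 117 CPM at 28 h, and 112, 106.4 and 107.1 CPM at 44 h. The 44 h libraries were all above those at 0 h, while the 28 h libraries covered the range of both. The fold between 44 and 0 h was 1.09 (95% confidence interval 0.978 to 1.21; edgeR's quasi-likelihood test, adjusted p = 0.28).

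CDCA8 encodes borealin, which joins INCENP and survivin and helps the complex reach the inner centromere. It read 165, 169 and 153 CPM at 0 h, 190, 174 and 176 CPM at 12 h, 189, 176 and 184 CPM at 28 h, and 215, 205 and 199 CPM at 44 h. The 12 h libraries were above those at 0 h, and the 44 h libraries were above all others. CDCA8 rose from 163 ± 8.54 to 206 ± 7.96 CPM between 0 and 44 h (SD, n = 3 each), a log2 fold change of 0.34 (SE 0.07) and a fold of 1.27 (95% confidence interval 1.16 to 1.39; edgeR's quasi-likelihood test, adjusted p = 0.000499). The call held with each of the 12 libraries left out in turn (edgeR adjusted p from 0.00045 to 0.00644).

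BIRC5 encodes survivin, which brings the complex to histone H3 phosphorylated by haspin. The row read 94.4, 80.8 and 82.8 CPM at 0 h, 79.6, 81.7 and 89.5 CPM at 12 h, 82.3, 78.6 and 84.2 CPM at 28 h, and 73.0, 80.8 and 81.2 CPM at 44 h. The times overlapped, with the highest library at 0 h and the lowest at 44 h. The fold between 44 and 0 h was 0.911 (95% confidence interval 0.813 to 1.02; edgeR's quasi-likelihood test, adjusted p = 0.26).

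Of the Aurora A activators, TPX2 read 531, 565 and 560 CPM at 0 h, 587, 574 and 495 CPM at 12 h, 569, 595 and 611 CPM at 28 h, and 593, 570 and 595 CPM at 44 h. The lowest library was 12 h replicate 5, in which the row at the AURKA interval had its highest value. The fold of TPX2 between 44 and 0 h was 1.06 (95% confidence interval 0.966 to 1.17; edgeR's quasi-likelihood test, adjusted p = 0.409).

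BORA read 53.3, 51.6 and 52.8 CPM at 0 h, 53.4, 51.2 and 55.1 CPM at 12 h, 50.6, 54.1 and 52.9 CPM at 28 h, and 54.5, 60.2 and 63.6 CPM at 44 h. The 3 earlier times overlapped, and the 44 h libraries lay above those at 0 and 28 h. The fold between 44 and 0 h was 1.13 (95% confidence interval 1.01 to 1.27), with an unadjusted p of 0.0362, and edgeR's quasi-likelihood test did not call it after adjustment over all genes (adjusted p = 0.128).

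**Figure D3:**
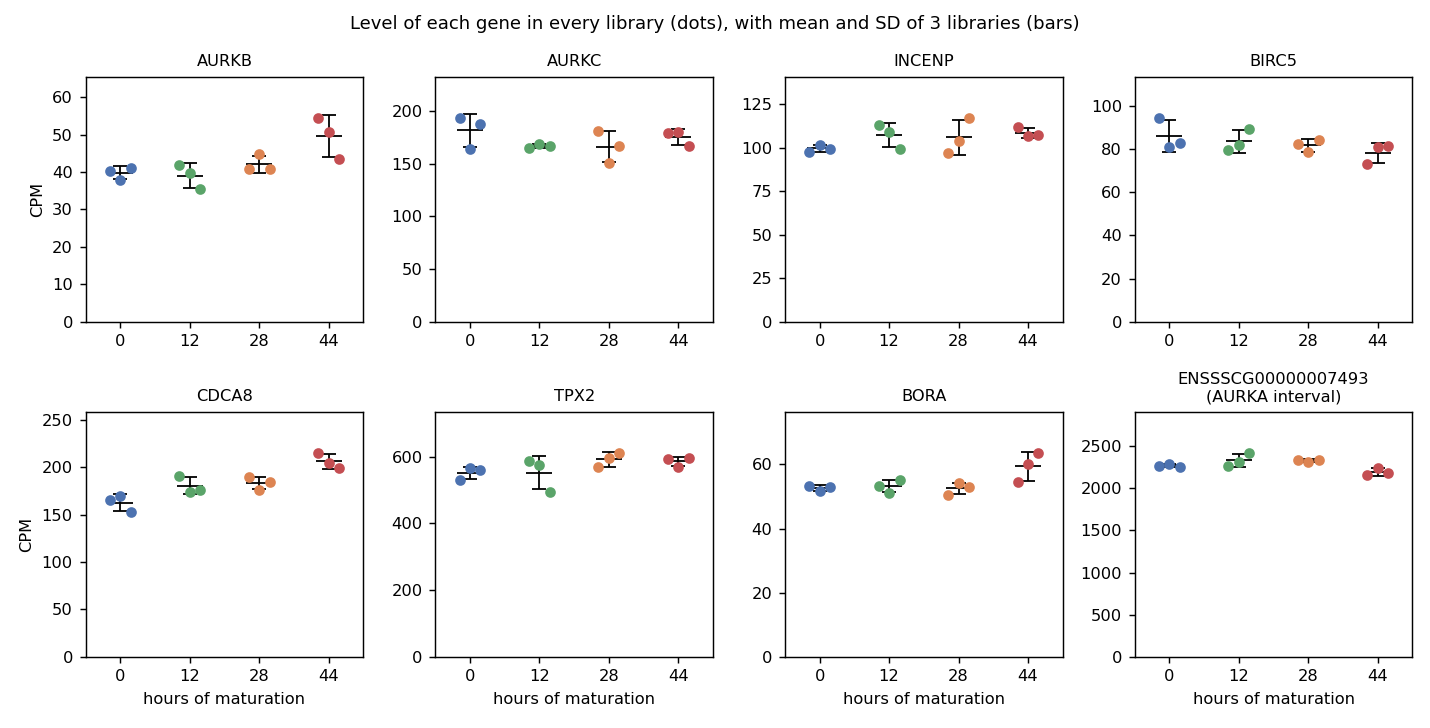
TMM-scaled CPM of each member and of the row at the AURKA interval at 0, 12, 28 and 44 h; dots are the 3 libraries of each time and bars give their mean and SD. CDCA8 goes from 163 to 206 CPM and AURKB from 39.8 to 49.5 CPM between the first and last time, and the other panels span smaller relative changes.

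No member was called in any single step. Between 12 and 0 h 0 of 7 members were called against 0.208 percent of tested genes, with 1 member (CDCA8) at an unadjusted p under 0.05 in edgeR's quasi-likelihood test and 0 members called by DESeq2. Between 28 and 12 h 0 of 7 were called against 0.262 percent, with 0 at an unadjusted p under 0.05 in edgeR and 0 called by DESeq2. Between 44 and 28 h 0 of 7 were called against 4.69 percent, with 3 members at an unadjusted p under 0.05 in edgeR's quasi-likelihood test and 0 called by DESeq2. Those 3 were CDCA8 (log2 fold change 0.17, adjusted p = 0.171), AURKB (0.23, adjusted p = 0.216) and BORA (0.18, adjusted p = 0.271). In the test for any change over the 4 times, edgeR called CDCA8 (adjusted p = 0.00511) and AURKB (adjusted p = 0.0461), against 13.1 percent of tested genes. The AURKB call there was lost when any 1 of 9 of the 12 libraries was left out, with edgeR adjusted p up to 0.325.

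Ratios of counts within a library need no scaling between libraries, and 3 were compared over the 4 times by an exact permutation test of F (which has no direction) over 369600 arrangements of the 12 libraries. The ratio of AURKC to AURKB counts started at 4.56 ± 0.235 (0 h), passed through 4.29 ± 0.402 (12 h) and 3.96 ± 0.534 (28 h), and ended at 3.55 ± 0.277 (44 h; SD, n = 3 each). The 0 h libraries (4.33 to 4.80) did not overlap those at 44 h (3.28 to 3.83), yet over the 4 times the exact permutation p was 0.0624, or 0.187 adjusted over the 3 ratios. Per length AURKC was 3.81 ± 0.197 times AURKB at 0 h and 2.97 ± 0.232 times at 44 h. The ratio of TPX2 to the row at the AURKA interval was 0.243 ± 0.00764 at 0 h and 0.267 ± 0.0120 at 44 h (exact permutation p = 0.218, adjusted p = 0.276), with its lowest value, 0.205, in 12 h replicate 5. Here too the 0 h libraries (0.234 to 0.248) did not overlap those at 44 h (0.253 to 0.275). The ratio of BIRC5 to INCENP was 0.866 ± 0.0896 at 0 h and 0.723 ± 0.0615 at 44 h (exact permutation p = 0.276, adjusted p = 0.276). Again the 0 h libraries (0.797 to 0.967) and the 44 h libraries (0.652 to 0.759) did not overlap. None of the 3 ratios passed the threshold, which does not show that they were equal.

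**Figure D4:**
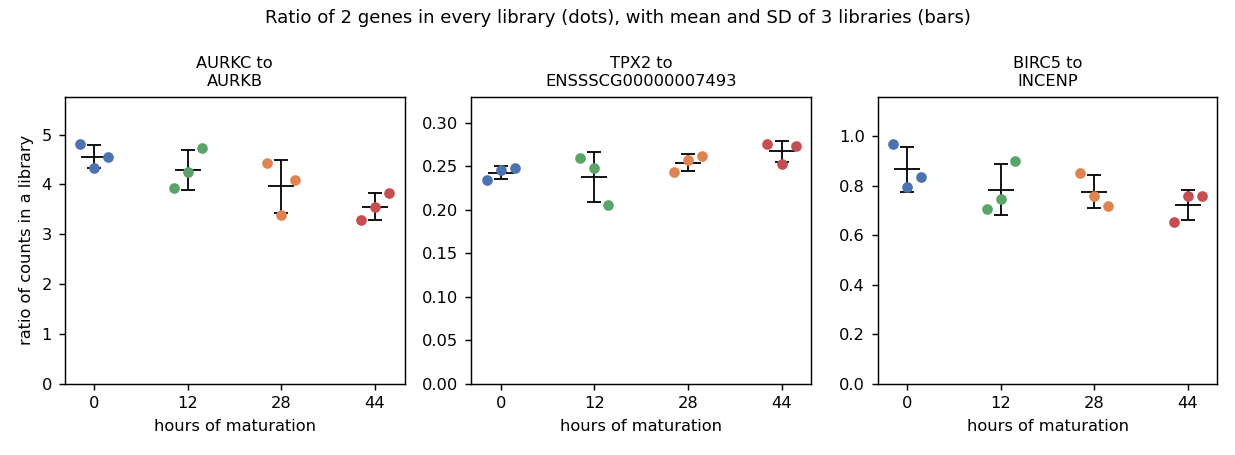
Ratios of counts within each library at the 4 times: AURKC to AURKB, TPX2 to the row at the AURKA interval, and BIRC5 to INCENP; dots are libraries and bars give the mean and SD of 3. The AURKC to AURKB ratio goes from a mean of 4.56 at 0 h to 3.55 at 44 h.

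Across the 12 libraries the correlations between members differed in sign, and whether the members moved together was not tested. On log2 CPM, the highest Pearson's r among the 7 members was 0.70, for AURKB with CDCA8 and for INCENP with TPX2. The lowest was -0.70, for BIRC5 with TPX2, and AURKB with BIRC5 was at -0.68. Other pairs lay between, such as INCENP with CDCA8 at 0.53 and AURKB with AURKC at 0.16. AURKB with the row at the AURKA interval, which is not counted as a member, was at -0.76. These describe libraries that share a time and a scaling. The gene with the pattern most like AURKB was CMIP (r = 0.92 over 12 libraries, among 7401 tested genes with a symbol and at least 10 CPM), followed by MAPK4 (0.92). For AURKC these were GDAP2 (0.90) and HOMER2 (0.90), for INCENP DOC2B (0.94) and CASC3 (0.92), and for BIRC5 SMU1 (0.86) and DDX59 (0.86). For CDCA8 they were SNRK (0.95) and PHF20L1 (0.95), for TPX2 LMNB1 (0.93) and DOCK6 (0.92), and for BORA RAD18 (0.89) and PAFAH1B2 (0.87). These values were picked as the highest among 7401 candidates, over only 12 libraries. How high such picked values lie for unrelated genes was not tested, so they rank genes and do not show a shared pattern. None of the 7 members was among the nearest patterns of another. With only the highest of 7401 candidates named, that absence does not bear on whether the members moved together.

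The partners, substrates and antagonists of these kinases were taken as 5 lists, with 94 genes tested. At 44 h with 0 h, edgeR called 8 higher and 9 lower, 18.1 percent, near the 19.9 percent of all tested genes (8.3 percent higher and 11.6 percent lower). Between 12 and 0 h and between 28 and 12 h, 0 list genes were called by edgeR, with 9 and 7 at an unadjusted p under 0.05 and 2 and 0 called by DESeq2. Between 44 and 28 h, 3 were higher (CBX1, NEDD9 and PPP2R1B) and 3 lower (SKA1, ESPL1 and PPP1R7). Over all tested genes 4.69 percent were called in that step, 0.393 percent higher and 4.3 percent lower. NEDD9, a scaffold that binds Aurora A, was named after its values were seen. Its log2 fold change was -0.46 between 28 and 12 h, then 0.80 between 44 and 28 h (edgeR adjusted p = 0.0256). At 44 h with 0 h NEDD9 was at 0.34 and not called (edgeR adjusted p = 0.281). CBX1 was at -0.16 between 28 and 12 h, then at 0.33 between 44 and 28 h (edgeR adjusted p = 0.0402).

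Among 15 genes listed as centromere and checkpoint partners, 3 rose and 1 fell between 0 and 44 h, with a median log2 fold change of -0.01. The list also holds AURKAIP1, the gene of an Aurora A interacting protein, which was not called. Over all tested genes 8.3 percent rose and 11.6 percent fell. CBX1, a heterochromatin protein, rose from 34.6 ± 2.53 to 49.7 ± 1.48 CPM (log2 fold change 0.53, edgeR's quasi-likelihood test, adjusted p = 0.000272). CENPA, the centromeric histone H3, rose from 45.4 ± 1.32 to 56.9 ± 2.49 CPM (0.33, adjusted p = 0.00798). CBX5, another heterochromatin protein, rose from 76.4 ± 3.68 to 93.3 ± 4.63 CPM (0.29, adjusted p = 0.0343), a call that ended (edgeR adjusted p between 0.0527 and 0.135) on leaving out 0 h replicate 2, 0 h replicate 4 or any 44 h library. BUB1, the kinase that marks histone H2A for shugoshin, fell from 129 ± 4.90 to 94.1 ± 6.66 CPM (-0.45, adjusted p = 0.000132).

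Of 19 genes listed as Aurora B and C substrates, 4 fell and 0 rose in edgeR's test. DESeq2 also called 4 genes, and in edgeR 4 had an unadjusted p under 0.05. Whether each gene encodes a substrate was not checked here. Over all tested genes 11.6 percent fell and 8.3 percent rose. The median log2 fold change of the list was -0.03. SKA1, of the complex that couples kinetochores to microtubules, fell from 404 ± 17.2 to 202 ± 37.8 CPM (log2 fold change -1.0, edgeR's quasi-likelihood test, adjusted p = 3.14e-07). ESPL1, which encodes separase, fell from 498 ± 2.55 to 380 ± 23.6 CPM (-0.39, adjusted p = 0.000129), and the kinetochore gene DSN1 fell from 97.9 ± 8.43 to 74.2 ± 2.82 CPM (-0.40, adjusted p = 0.000516). The mitotic kinesin gene KIF20A, named after its values were seen, fell by 0.22 on the log2 scale (adjusted p = 0.0138). The kinetochore genes NDC80, NUF2 and MIS12 were not called, with log2 fold changes of -0.13, -0.10 and 0.01; these too were named after their values were seen.

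Of 22 Aurora A spindle partners and substrates, 2 rose and 2 fell, against 8.3 and 11.6 percent of all tested genes, with a median log2 fold change of -0.02. LATS2, a kinase that Aurora A phosphorylates, rose from 163 ± 8.01 to 210 ± 5.62 CPM (log2 fold change 0.37, edgeR's quasi-likelihood test, adjusted p = 0.000287). CDC25B, the phosphatase that activates CDK1, rose from 283 ± 30.2 to 346 ± 10.9 CPM (0.29, adjusted p = 0.006), a call lost without 0 h replicate 2 (edgeR adjusted p = 0.0535). DLGAP5, a spindle protein, fell from 378 ± 26.5 to 320 ± 18.8 CPM (-0.24, adjusted p = 0.0241), and CLTC, the clathrin heavy chain, fell from 294 ± 21.9 to 258 ± 6.72 CPM (-0.19, adjusted p = 0.0427). Leaving out 0 h replicate 2 or 3, or 44 h replicate 1 or 2, ended the DLGAP5 call (edgeR adjusted p between 0.051 and 0.106). Leaving out 0 h replicate 3 or 4, or any 44 h library, ended the CLTC call (between 0.0582 and 0.155), as did RLE scaling (0.0527), no filter on low counts (0.0576) and a fit of the 0 and 44 h libraries alone (0.0536).

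Of 19 phosphatase genes, whose products remove Aurora phosphorylation, and their regulators, 3 rose and 2 fell, against 8.3 and 11.6 percent of all tested genes, with a median log2 fold change of 0.09. PPP2R1B, a scaffold subunit of phosphatase 2A, rose from 594 ± 21.0 to 725 ± 35.2 CPM (log2 fold change 0.29, edgeR's quasi-likelihood test, adjusted p = 0.00186). CDCA2, which brings phosphatase 1 to chromatin, rose from 150 ± 4.06 to 175 ± 10.9 CPM (0.22, adjusted p = 0.0225), and PPP1R12A, a targeting subunit of phosphatase 1, rose from 383 ± 47.8 to 457 ± 7.62 CPM (0.26, adjusted p = 0.0235). Without 0 h replicate 2 or 4, or 44 h replicate 1, CDCA2 was no longer called (edgeR adjusted p between 0.0648 and 0.153). Without 0 h replicate 2 or 4, or any 44 h library, PPP1R12A was no longer called (between 0.0505 and 0.142). PPP4C, the catalytic subunit of phosphatase 4, fell from 226 ± 25.0 to 159 ± 11 CPM (-0.51, adjusted p = 0.000372), and PPP1R7, a regulator of phosphatase 1, fell from 34.7 ± 1.37 to 25.6 ± 0.758 CPM (-0.44, adjusted p = 0.000968).

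Of 19 tested ubiquitin system genes linked to Aurora kinases, some encode ligases, their adaptors or proteases. Others are the conjugating enzyme genes UBE2C and UBE2S, and VCP, UFD1 and NPLOC4. Among all 19, edgeR's quasi-likelihood test called 0 at 44 h with 0 h, with 3 at an unadjusted p under 0.05 and 0 called by DESeq2. Over all tested genes 19.9 percent were called. The median log2 fold change of that list was -0.02.

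**Figure D5:**
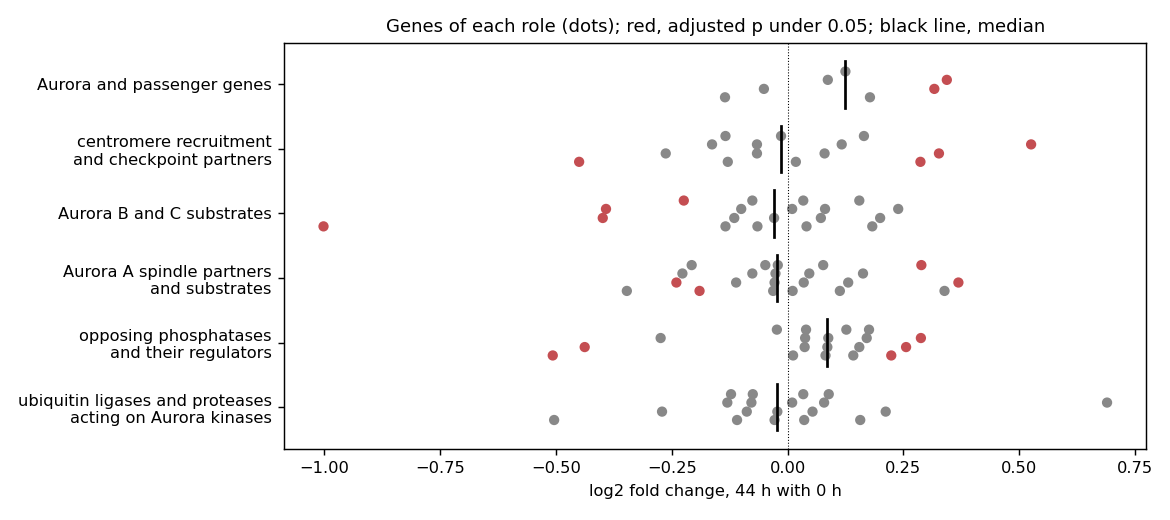
Log2 fold change between 44 h and 0 h of the 7 members (top row) and of every tested gene of the 5 lists; dots are genes, red where edgeR's adjusted p is under 0.05, and black lines are medians. Of the 94 list genes, 8 are called higher and 9 lower, and SKA1 at -1.0 is the lowest called value.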

How the data were processed

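Total RNA of denuded oocytes was made into stranded SMARTer Pico libraries and sequenced on a NovaSeq, per the labels' protocols. The authors' deposited table gives total counts per gene and library and, per the file headers, RPKM values deposited beside them. Sscrofa11.1 and DESeq2 are named in the submitters' processing notes; the aligner, the counting rule and its use of strand are not given in the sources used here.

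Counts were filtered (filterByExpr, minimum count 10), scaled by TMM and fitted with 1 mean per time in edgeR 4.0.16 (R 4.3.3, limma 3.58.1), with 8 residual degrees of freedom and a biological coefficient of variation of 10.6%. Contrasts were tested by the quasi-likelihood F test of edgeR, adjusted after Benjamini and Hochberg over 12977 genes, and the code was tested on simulated data. DESeq2 1.42.0 was an alternative. RPKM served only to compare genes. Log2 CPM for correlations used a prior count of 2.

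The members, role lists and tests were chosen with earlier results of these data known. Named genes were the members, up to 3 per direction and list by smallest adjusted p at 44 h with 0 h, and the 2 nearest patterns per member. No sequence is printed. Of the list genes, 9 had no row of that name (HASPIN, KNL1, TACC1, TACC3, PCNT, PPP1R2, PPP2R5C, BOD1 and SET) and were not analysed here, and OTUD6A was below the filter.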

Additional observations from a re-analysis of the deposited data

How the results depend on the processing

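The alternatives were RLE scaling, library totals alone, no filter, DESeq2, a fit of just the 2 times in question, a replicate block, and the omission of each library in turn. The call of CDCA8 held in all of them; under the block AURKB was not called at 44 h with 0 h (edgeR adjusted p = 0.06), leaving 1 member, and the calls of CBX5 (0.164), CDCA2 (0.111) and CLTC (0.0762) also ended. Over the 4 times, 1 member was called under library totals alone and 1 under the block. Leaving out libraries gave 1 to 2 called members in both tests. The log2 fold change of BORA at 12 h with 0 h turned to -0.016 under library totals alone. Leaving out libraries moved it from -0.011 to 0.041, that of AURKB there from -0.082 to 0.036, and that of BORA at 28 h with 12 h from -0.051 to 0.008; none of these was called. Nothing in the labels says what a shared replicate number marks. Deviations of the 10 same-numbered pairs correlated at -0.006 to 0.127 (9 above 0, 2 above 0.1). Those of 44 differently numbered pairs correlated at -0.114 to 0.067 (16 above 0). The same-numbered values lie higher, and whether the numbers pair the libraries was not tested. The main fit did not use the numbers, so calls that end under the block depend on that choice.

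Counts over all genes at 12 h with 0 h were 64 without the filter, 67 in DESeq2 and 20 to 261 on leaving out libraries (261 without 0 h replicate 3, against 27). At 28 h with 12 h they were 64, 66 and 8 to 52, and 8 under the block; leaving out 0 h replicate 3 gave 52, 12 h replicate 3 or 5 gave 14 or 11, and 28 h replicate 2, 3 or 4 gave 8, 20 or 11. At 44 h with 28 h the fit of those times gave 981, and leaving out libraries 394 (44 h replicate 2) to 723. At 44 h with 0 h the range was 1706 (without 0 h replicate 2) to 2868, and for any change 1089 (without 44 h replicate 1) to 2168. The cause was not tested. For single genes that were called, 290 alternatives kept the call and 34 lost it; for those not called, 264 kept direction without a call and 6 reversed.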
